A study of Homo sapiens with 6 samples.

Results

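ESRP1 and ESRP2, a pair of closely related epithelial splicing regulatory proteins, were compared with each other in 2 human pancreatic cancer cell lines. The comparison took 4 of the 6 RNA sequencing libraries of the study, the ESRP1 and the ESRP2 library of MIA-PaCa2 and those of PANC-1, and set ESRP1 against ESRP2 inside each line. MIA-PaCa2 and PANC-1 are established lines from pancreatic carcinoma, and in each line one culture overexpressed ESRP1 and another ESRP2. The third library of each line, labelled LPCX, was the control and is given only as the level without added ESRP. All cells were kept in DMEM with fetal bovine serum and antibiotics, with no treatment named, and the study's stated question was what ESRP1 and ESRP2 do as pancreatic cancer progresses. The labels do not say whether a cell pool or a single clone was sequenced, nor how the constructs were delivered. With 1 library for each line and construct, the 2 lines are the only replicates, and a difference between lines cannot be told apart from a difference between libraries. The values are in TPM, each transcript's share of all RNA molecules in a library on a fixed total, and they keep no read numbers. Depth is therefore unknown, and counting intervals are not given.

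ESRP1 and ESRP2 bind RNA through RNA recognition motifs that prefer stretches rich in UGG and GGU. In epithelial cells they decide whether short alternative exons are kept or skipped. Binding in the intron after an exon tends to favour its inclusion, and binding before or within it tends to favour skipping. Many such exons lie in genes for adhesion, the actin cytoskeleton and membrane traffic, and they switch when epithelial cells take on a mesenchymal state. The paralogs share many targets, and the comparison here asks where they differ at the level of genes, transcripts and exons.

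The introduced genes matched the labels. ESRP1 RNA stood at 367 TPM in the MIA-PaCa2 ESRP1 library and 491 TPM in the PANC-1 ESRP1 library, and at 0.261 TPM or less in the other 4 libraries. ESRP2 RNA stood at 197 TPM in the MIA-PaCa2 ESRP2 library and 308 TPM in the PANC-1 ESRP2 library. The constructs were therefore not at equal RNA levels, since ESRP1 in its libraries was 1.87 times the ESRP2 level of the partner library in MIA-PaCa2 and 1.60 times in PANC-1. PANC-1 also had ESRP2 RNA without the construct, 34.8 TPM with LPCX and 37.7 TPM with ESRP1, whereas MIA-PaCa2 had 0.106 TPM or less. The PANC-1 comparison is thus ESRP1 on top of some ESRP2 against more ESRP2, and the MIA-PaCa2 comparison is 1 paralog against the other. A difference in protein, or in activity per protein, cannot be told apart from these RNA levels.

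**Figure D1:**
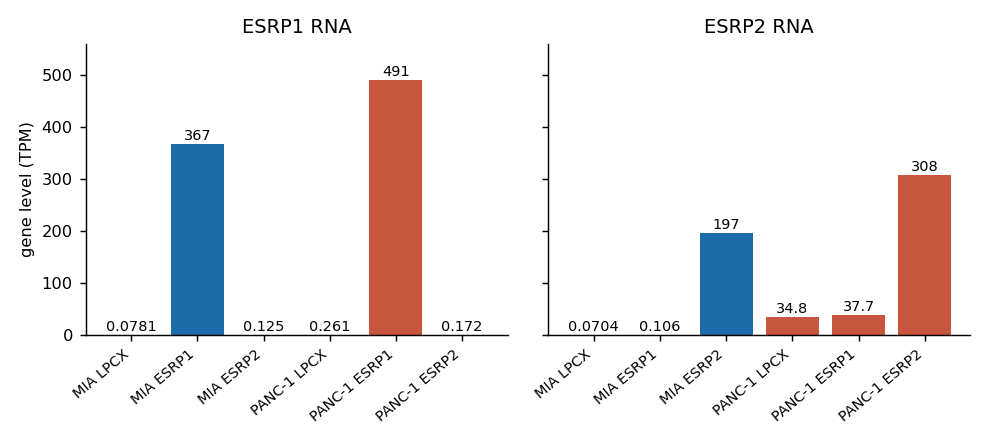
ESRP1 RNA (left) and ESRP2 RNA (right) as gene level in TPM, 1 bar for each of the 6 libraries, with the value printed above it (blue MIA-PaCa2, red PANC-1). ESRP1 reached 367 and 491 TPM in its libraries, above the 197 and 308 TPM that ESRP2 reached, and PANC-1 held 34.8 TPM of ESRP2 with LPCX alone.

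In the whole series between 10578 and 10932 genes reached 5 TPM in a library. The epithelial keratins KRT8, KRT18 and KRT19 were at 234 TPM or more in all 6 libraries, whereas KRT7 was between 0.176 and 2.00 TPM. EPCAM, an epithelial surface protein, was listed at 0 in MIA-PaCa2 and stood between 24.3 and 28.2 TPM in PANC-1, and E-cadherin (CDH1) was at 0.173 TPM or less in MIA-PaCa2 and between 3.89 and 8.59 TPM in PANC-1. Markers of acinar and islet cells, 14 genes, summed to 2.00 TPM or less in each library, and 6 of them were listed at 0 throughout. Fibroblast and endothelial markers summed to between 67.4 and 136 TPM, and neuronal markers to between 300 and 538 TPM. Most of the fibroblast and endothelial sum was 1 collagen gene in each line. With LPCX, COL1A2 held 132 of 136 TPM in MIA-PaCa2, and COL1A1 held 66.4 of 67.4 TPM in PANC-1. The MIA-PaCa2 ESRP1 library stood apart, because globin RNA, which red blood cells make, was at 569 TPM for HBB, 670 TPM for HBA2 and 336 TPM for HBA1. The 5 globin genes looked at summed to 1575 TPM there, 0.158% of that library, and to 4.07 TPM or less in each of the other 5. The neutrophil gene FCGR3B was at 3.67 TPM in that library and listed at 0 elsewhere. A list of 14 leukocyte and red cell markers summed to 942 TPM there, against 29.9 and 35.0 TPM in the other MIA-PaCa2 libraries. Its sum lay between 298 and 366 TPM over the PANC-1 libraries. HBB and HBA1 are on this list and hold most of the 942 TPM, so that sum adds little to the globin values. The part of the globin and blood cell RNA in the MIA-PaCa2 differences was not tested. Percentages, TPM and list medians are therefore given for each line, and those of PANC-1 use no MIA-PaCa2 library. Fitted log2 differences, log2 odds and their p-values rest on both lines.

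The exons on which the results turn are printed first, cut from the GENCODE 29 transcript that holds each, in the sense of the RNA. TGG and GGT, the triplets named above, are in capitals. Coordinates are on GRCh38, and all of these exons are coding. The first 4 sequences are exons that were kept more with ESRP2.

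PTPRF, 27 nt, chr1:43602071-43602097, plus strand: TGGcggccagaggagtccgaggactat

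RAC1, 57 nt, chr7:6398662-6398718, plus strand: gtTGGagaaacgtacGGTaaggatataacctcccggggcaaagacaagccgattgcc

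MAP3K7, 81 nt, chr6:90544552-90544632, minus strand: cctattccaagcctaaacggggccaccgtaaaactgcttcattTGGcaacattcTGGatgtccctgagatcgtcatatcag

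USO1, 21 nt, chr4:75795336-75795356, plus strand: GGTgataagatcgacagacgg

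The next is an exon that was skipped more with ESRP2, and after it come 3 that were kept more with ESRP1 and 1 on which both paralogs gave nearly the same value.

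MYOF, 39 nt, chr10:93392917-93392955, minus strand: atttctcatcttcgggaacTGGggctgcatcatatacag

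CD44, 126 nt, chr11:35198121-35198246, plus strand: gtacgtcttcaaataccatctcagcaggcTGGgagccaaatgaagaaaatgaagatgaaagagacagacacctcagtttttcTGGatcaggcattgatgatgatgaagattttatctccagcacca

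ENAH, 63 nt, chr1:225504991-225505053, minus strand: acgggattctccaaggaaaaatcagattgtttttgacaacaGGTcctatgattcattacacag

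ECT2, 93 nt, chr3:172755483-172755575, plus strand: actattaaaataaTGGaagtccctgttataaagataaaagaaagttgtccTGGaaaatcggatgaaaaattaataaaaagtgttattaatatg

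SLK, 93 nt, chr10:104010816-104010908, plus strand: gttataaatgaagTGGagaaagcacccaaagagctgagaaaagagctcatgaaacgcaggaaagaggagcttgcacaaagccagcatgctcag

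All 9 printed exons have a length that is a multiple of 3, so that keeping or skipping one leaves the reading frame as it was. Over all 2020 exons tested, 59.1% had such a length. Among exons that differed by 10 points or more in both lines, 6 of the 8 kept more with ESRP1 had it. Of the 21 kept more with ESRP2 it was 9 (42.9%). The longer motif GGTGG, searched in the sense strand of the exon itself, was in none of these 9 and in 15.1% of all 2020 exons tested. The 9 were picked for printing, so their share is not that of all exons described. CD44 exons of 102 and 204 nt, described below but not printed, hold GGTGG. Among exons that differed by 10 points or more in both lines it was in 1 of the 8 kept more with ESRP1 and in 1 of the 21 kept more with ESRP2. TGG or GGT occurred at a median of 3.09 places per 100 bases of exon over all exons tested, 3.22 in the former set and 4.04 in the latter. The introns beside the exons were not analysed here.

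Exon inclusion was computed for 2020 cassette exons in 1347 genes as the TPM of transcripts that hold an exon, in percent of those and of transcripts that span and skip it. Exons counted as different when the gap had the same sign and at least 10 percentage points in each line, and 8 exons (0.396%) were kept more with ESRP1 and 21 (1.04%) more with ESRP2. These lie in 7 and 15 genes. Another 14 exons differed by as much in opposite directions in the 2 lines. Among exons whose local transcripts were between 5 and 20 TPM in the lowest library, 13 differed the same way in both lines and 12 in opposite ways. Between 20 and 100 TPM the counts were 12 and 2, and at 100 TPM or more they were 4 and 0. Over the 1116 exons tested when 20 TPM was required, 3 were kept more with ESRP1, 13 more with ESRP2 and 2 in opposite ways. Those that differed the same way in both lines lie in only 10 genes. Several NBPF9 exons among those kept more with ESRP2 share 1 value, as do those of USO1, so exon counts exceed the number of separate differences. CLASP1 and ZNF266 are each counted on both sides, with exons whose gaps had equal size and opposite sign. No exon passed the test over both lines, limma on log2 odds of inclusion with cell line as a block and Benjamini-Hochberg adjustment at 0.05 (0 called, 0.0% in each direction). That fit has 1 residual degree of freedom from 4 libraries, and 141 exons (6.98%) had an unadjusted p under 0.05. SEs and p-values from limma, here and below, are moderated. They draw on the variance of all exons, transcripts or genes tested as well as on the feature's own. The values that follow are therefore measured differences that recurred in both lines and did not pass the adjusted test.

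**Figure D2:**
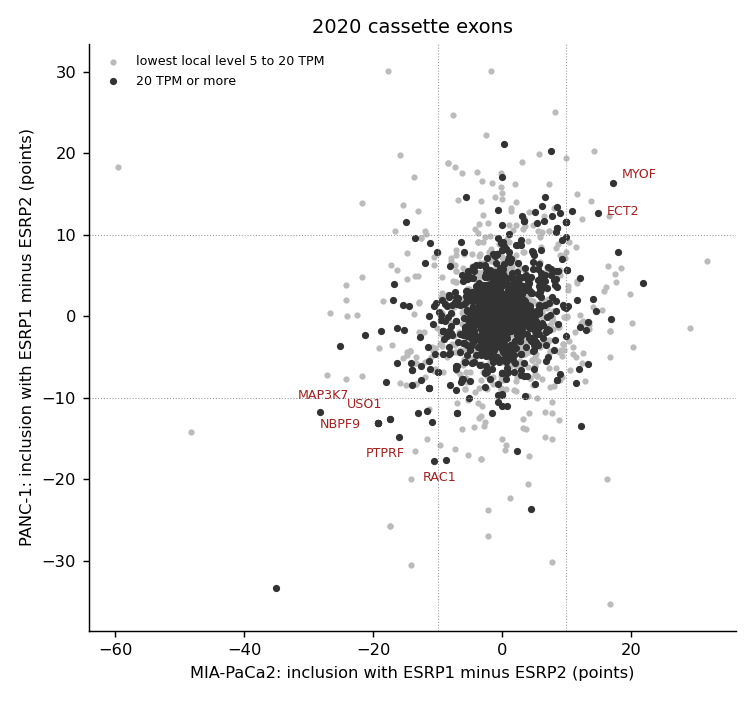
Inclusion with ESRP1 minus inclusion with ESRP2 in percentage points, MIA-PaCa2 on the horizontal and PANC-1 on the vertical axis, 1 point for each of 2020 exons; dotted lines mark 10 points. Black points are exons whose local transcripts had 20 TPM or more in all 4 libraries, and of these 13 lie beyond both lines at the lower left, kept more with ESRP2, and 3 at the upper right. Exons of a gene that share a value fall on the same spot.

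The genes PTPRF, RAC1, MAP3K7 and USO1, each with 20 TPM or more of local transcripts, had exons kept more with ESRP2. PTPRF encodes the receptor tyrosine phosphatase LAR of cell adhesion sites. Its 27 nt exon was at 1.34%, 13.5% and 29.6% with LPCX, then ESRP1, then ESRP2, in MIA-PaCa2, versus 9.84%, 14.8% and 29.6% in PANC-1. ESRP2 stood highest in both lines, and ESRP1 lay nearer to LPCX in PANC-1 than in MIA-PaCa2. The log2 odds with ESRP1 minus ESRP2 were -1.33 (SE 0.189, limma adjusted p = 0.607 over all exons tested). With the 2 LPCX libraries added and 1 ESRP library left out in turn, they lay between -2.12 (without PANC-1 ESRP2) and -0.54 (without MIA-PaCa2 ESRP2). Fits of this kind, here and below, take the difference between lines partly from LPCX, so LPCX values enter them. RAC1 encodes a small GTPase that drives actin protrusion, and its 57 nt exon makes RAC1b, a fast cycling form found in tumours. RAC1b was at 0.469%, 6.36% and 16.9% in MIA-PaCa2, versus 20.2%, 24.96% and 42.7% in PANC-1, in the same order of libraries. In level, the RAC1b transcript NM_018890 was at 20.5 TPM with ESRP1 and 58.1 TPM with ESRP2 in MIA-PaCa2, and at 123 and 211 TPM in PANC-1.

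MAP3K7 encodes TAK1, a kinase of the TGF-beta and interleukin 1 pathways. Its 81 nt exon was at 31.2%, 40.7% and 68.9% in MIA-PaCa2, versus 12.5%, 17.5% and 29.2% in PANC-1. The order LPCX, ESRP1, ESRP2 was the same in both lines, with a wider gap between the paralogs in MIA-PaCa2 (28.3 points) than in PANC-1 (11.8 points). USO1 encodes p115, a tether of vesicles at the Golgi. Its exons of 12 and 21 nt sit in the same transcript and share 1 value, 1.04%, 25.5% and 43.0% in MIA-PaCa2, versus 23.2%, 41.7% and 54.3% in PANC-1. ESRP1 and ESRP2 were both above LPCX for USO1 in each line. With LPCX added and the MIA-PaCa2 ESRP2 library left out, the log2 odds for USO1 were 0.02, against -0.92 from the 4 libraries, and without the MIA-PaCa2 ESRP1 library they were -1.55.

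MYOF, myoferlin, a membrane repair and fusion protein, showed the same order for skipping. Its 39 nt exon was at 96.5% with LPCX, 82.2% with ESRP1 and 65.1% with ESRP2 in MIA-PaCa2. In PANC-1 it was at 97.0%, 82.1% and 65.7%, so the lines lay close together with each construct. The skipping transcript NM_133337 stood at 53.3 and 53.1 TPM with ESRP1 and at 91.7 and 101 TPM with ESRP2, in MIA-PaCa2 and PANC-1. ESRP1 exceeded ESRP2 in inclusion by 17.2 and 16.3 points, with log2 odds of 1.28 (SE 0.240, limma adjusted p = 0.607).

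BAIAP2 and DNM2 belonged to the same side with less even values. BAIAP2 encodes IRSp53, which bends membrane at actin protrusions, and its 46 nt exon (chr17:81110914-81110959, partly coding) was at 7.97%, 38.0% and 86.1% in MIA-PaCa2 but at 31.9%, 52.0% and 66.2% in PANC-1. The transcript with that exon, NM_006340, made up 10.9% and 34.4% of BAIAP2 with ESRP1 and ESRP2 in MIA-PaCa2, versus 23.8% and 35.0% in PANC-1. DNM2, dynamin 2, which pinches off endocytic vesicles, had a 12 nt exon (chr19:10808569-10808580) at 15.3%, 48.9% and 74.0% in MIA-PaCa2. In PANC-1 that exon was at 67.1%, 86.3% and 89.97%, close together with ESRP1 and ESRP2. The DNM2 transcript NM_001005360 differed more evenly, at 13.5% with ESRP1 and 46.3% with ESRP2 in MIA-PaCa2, versus 49.2% and 70.5% in PANC-1.

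CD44 and ENAH, both well known as ESRP targets, stood on the other side. CD44, a hyaluronan receptor, has variable exons that mesenchymal cells skip, and 8 of them could be tested. The 5 toward the 5′ end share 1 value because the same transcripts hold them, 3.39% with LPCX, 29.8% with ESRP1 and 19.9% with ESRP2 in MIA-PaCa2, versus 4.91%, 40.05% and 28.5% in PANC-1. The next 2 were at 72.6% with ESRP1 and 64.0% with ESRP2 in MIA-PaCa2, versus 80.9% and 70.1% in PANC-1. ESRP1 was higher for all 8 exons in both lines, by 8.46 to 11.6 points. In levels, NM_001001389, which holds all of these exons, was at 184 TPM with ESRP1 and 99.96 TPM with ESRP2 in MIA-PaCa2, and at 333 and 221 TPM in PANC-1. NM_001001390, which skips the exons toward the 5′ end and holds those toward the 3′ end, was at 42.8% and 44.1% of CD44 in MIA-PaCa2, versus 40.9% and 41.6% in PANC-1. The standard form without variant exons, NM_001001391, was at 14.97% with ESRP1 and 26.3% with ESRP2 in MIA-PaCa2, versus 15.98% and 27.04% in PANC-1. The long form and the standard form thus differed between the paralogs in opposite directions, and the middle form stood nearly level. The 5 exons toward the 5′ end missed the 10 points by little in MIA-PaCa2, at 9.89, and are not among the 8 counted above.

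ENAH, an actin polymerase of filopodia and adherens junctions, has a 63 nt exon (exon 11a) that marks epithelial cells. It was at 2.40%, 65.6% and 57.1% with LPCX, then ESRP1, then ESRP2, in MIA-PaCa2, versus 4.45%, 41.2% and 27.9% in PANC-1. ESRP1 led by 8.51 and 13.4 points (log2 odds 0.67, SE 0.197, limma adjusted p = 0.664), and without the MIA-PaCa2 ESRP1 library, with LPCX added, the log2 odds were 0.21. Without the PANC-1 ESRP2 library they were -0.03. Such fits use the LPCX libraries for the difference between lines, so they are not the gap of the remaining ESRP libraries alone. ECT2, the exchange factor that starts cytokinesis, was at 46.5% and 31.6% for its 93 nt exon in MIA-PaCa2, versus 37.0% and 24.4% in PANC-1. Here LPCX lay between the paralogs, at 37.0% and 29.9%, so that ESRP1 was above and ESRP2 below the control in both lines. Just under the threshold, DIAPH1, a formin, gave 84.6% and 75.3% for a 27 nt exon in MIA-PaCa2, versus 91.6% and 82.1% in PANC-1. ADAM15, a membrane protease, gave 24.3% and 14.3% for a 72 nt exon in MIA-PaCa2, versus 43.0% and 33.3% in PANC-1.

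SLK, a kinase that acts on the cytoskeleton, gave nearly the same values with both paralogs. Its 93 nt exon was at 0.827% with LPCX, 45.6% with ESRP1 and 43.7% with ESRP2 in MIA-PaCa2, versus 0.999%, 17.8% and 15.7% in PANC-1. The gap between the paralogs, 1.87 and 2.09 points, was far under the gap between lines. CTNND1, p120 catenin, could be followed by transcripts only. Its form NM_001085460 made up 41.4%, 11.2% and 18.2% of the gene with LPCX, then ESRP1, then ESRP2, in MIA-PaCa2, versus 33.0%, 5.09% and 12.2% in PANC-1. Both paralogs stood below LPCX, and ESRP1 was the lower in each line. OSBPL3, an oxysterol-binding protein, had a 93 nt exon at 95.9%, 71.8% and 71.1% in MIA-PaCa2, versus 82.2%, 65.2% and 59.5% in PANC-1, again close between the paralogs.

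**Figure D3:**
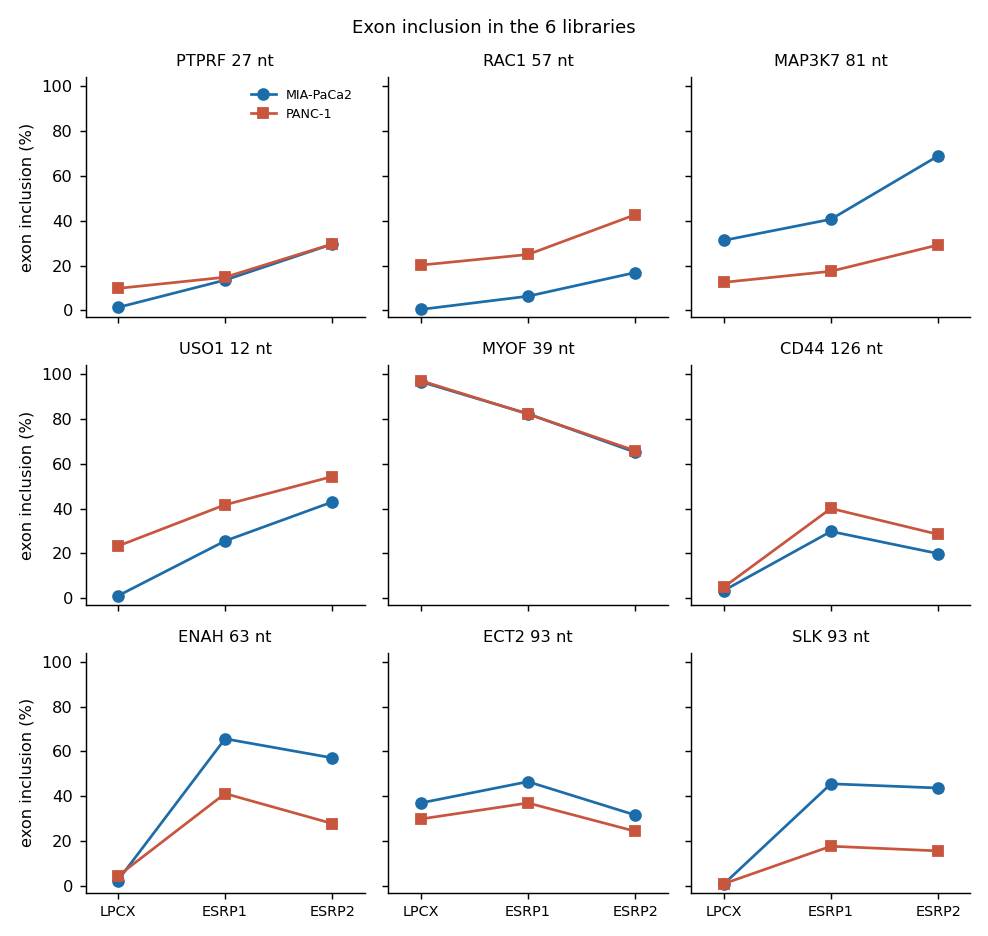
Exon inclusion in percent for 9 exons, with LPCX, ESRP1 and ESRP2 on the horizontal axis; blue circles are MIA-PaCa2 and red squares PANC-1, 1 library a point, joined by a line for each cell line. In the PTPRF, RAC1, MAP3K7 and USO1 panels ESRP2 is the highest of the 3 in both lines, in the CD44, ENAH and ECT2 panels ESRP1 is, and for MYOF the lines lie nearly on each other.

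Besides BAIAP2, exons at under 20 TPM passed the 10 points in CDK20, AGBL5, KLC4, ZNF18, ADGRB2 and ZNF266 on the side of ESRP2 and in KCTD17, APAF1, JAG2 and ZNF266 on that of ESRP1. Their local transcripts were between 5.36 and 17.4 TPM in the lowest library. At 20 TPM or more ZNF142, CLASP1 and NBPF9 also passed. CLASP1, a microtubule plus end protein, had exons of 27 and 48 nt whose values mirrored each other. With ESRP1, then ESRP2, in MIA-PaCa2 the first was at 49.1% and 38.2% and the second at 50.9% and 61.8%. They are thus 1 difference seen from both sides, and the ZNF266 exons mirrored each other in the same way. Just inside the threshold was RAC1 at 10.6 points in MIA-PaCa2, and just outside was TRAPPC2 at 9.98 points. APAF1, the core of the apoptosome, gave 72.9% with ESRP1 and 56.3% with ESRP2 for a 129 nt exon in MIA-PaCa2, versus 66.3% and 53.9% in PANC-1. LPCX was at 70.3% and 62.9%, close to the ESRP1 value in both lines. JAG2, a Notch ligand, gave 78.0% and 65.6% for a 114 nt exon in MIA-PaCa2, versus 74.9% and 62.97% in PANC-1. NBPF9, at 48.4% and 67.7% in MIA-PaCa2, versus 40.96% and 54.0% in PANC-1, belongs to a family of nearly identical copies, and its values are uncertain for that reason.

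A second view started from exons that respond to ESRP at all, those whose mean over the ESRP1 and ESRP2 libraries differed from LPCX by 10 points or more in both lines, a set defined after the values were seen. It held 55 exons in 43 genes, 38 with more inclusion and 17 with less. ESRP2 was farther from LPCX in both lines for 24 of them, ESRP1 for 15, and the order differed by line for 16. Counted by gene, by the exon with the largest smaller gap of the lines, ESRP2 was farther in 21 and ESRP1 in 8. In the other 14 the order differed by line. Line by line, ESRP1 was the farther for 26 of the 55 exons in MIA-PaCa2 and for 20 in PANC-1. For the 17 exons with less inclusion these counts were 10 and 2. The 15 exons of ESRP1 include the 8 of CD44, and none of the 15 led by 10 points in both lines, against 9 of the 24. Over the 55 exons the paralog differences of the lines had a Pearson r of 0.46, as a description, since exons of 1 gene share transcripts and all share the same 4 libraries. UPF3B, a factor of nonsense-mediated decay, was among those led by ESRP2, at 10.1% and 28.0% for a 39 nt exon in MIA-PaCa2, versus 24.99% and 33.0% in PANC-1. ARHGEF12, a guanine nucleotide exchange factor, was at 45.3% and 57.8% and at 56.6% and 64.5%. ARHGAP17, a Rac and Cdc42 GTPase activator, was on the side of ESRP1, at 71.3% and 79.5% in MIA-PaCa2, versus 61.2% and 65.8% in PANC-1 for an exon that LPCX kept at 90.4% and 84.2%. DNMT3B, a DNA methyltransferase, was at 52.8% and 56.6% in MIA-PaCa2, versus 61.5% and 65.1% in PANC-1 for both of its exons in the set. NUMB, a Notch antagonist, had a 33 nt exon whose order differed by line, at 50.1% and 54.6% in MIA-PaCa2, versus 54.7% and 48.6% in PANC-1.

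Transcript shares were tested for 12405 transcripts of 5937 genes with an NM_ accession, the RefSeq prefix of coding transcripts. None passed limma on log2 odds after adjustment (0.0% in each direction), 575 (4.64%) had an unadjusted p under 0.05, and the lowest adjusted p was 0.942. From 10 points in both lines, 103 transcripts (0.83%) were higher with ESRP1 and 99 (0.798%) were lower. The number in opposite directions, 185, was close to the 202 in the same direction. In genes between 5 and 20 TPM the same and the opposite direction had 146 each, between 20 and 100 TPM 47 and 37, and at 100 TPM or more 9 and 2. MYOF, CD44, RAC1 and ECT2, described above, were among the genes at high level. By the size of the smaller gap the first transcripts came from genes near the lower limit, such as GLTSCR1L, whose form NM_015349 was at 42.8% with ESRP1 and 1.64% with ESRP2 in MIA-PaCa2, versus 59.3% and 21.2% in PANC-1, in a gene whose lowest level was 5.53 TPM. MGME1, a mitochondrial exonuclease at 34.8 TPM or more, was at 81.2% and 62.1% for NM_052865 in MIA-PaCa2, versus 70.6% and 50.7% in PANC-1. SCAF8, a binder of RNA polymerase II at 28.96 TPM or more, was at 60.3% and 80.6% for NM_014892 in MIA-PaCa2, versus 54.2% and 88.9% in PANC-1.

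A list of 48 genes with exons known to respond to ESRPs, drawn up with earlier results of these libraries known, held 42 genes whose shares could be tested. In 11 of the 42 a share differed by 10 points in both lines, beside 146 of all 5937 genes (2.46%). For cassette exons the counts were 7 of 27 and 20 of 1347 (1.48%). Because of how the list was drawn up, these counts are no independent evidence. Besides the genes above, FGFR1 and MYO18A were among the 11. FGFR1, a fibroblast growth factor receptor, had its form NM_015850 at 16.3% with ESRP1 and 29.6% with ESRP2 in MIA-PaCa2, versus 6.50% and 19.5% in PANC-1. MYO18A, an unconventional myosin of the Golgi, had NM_203318 at 42.0% and 29.6% in MIA-PaCa2, versus 24.3% and 14.2% in PANC-1. FGFR2, the receptor by which ESRPs are best known, was too low in MIA-PaCa2 for shares, at 4.73 and 4.30 TPM with ESRP1 and ESRP2 there and at 10.9 and 8.14 TPM in PANC-1. Among splicing regulators, 0 of 44 genes had a share that differed by 10 points in both lines.

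Gene levels differed little between the paralogs. Among 11639 genes with 5 TPM in at least 2 of the 4 libraries, limma on log2 of TPM plus 1 called 1 gene higher with ESRP1 (0.00859%) and 0 lower (0.0%). Unadjusted p-values under 0.05 were found for 433 genes (3.72%), and for 273 (2.56%) of those with an NM_ transcript. The 1 call was ESRP1 itself (log2 difference 8.53, SE 0.125, adjusted p = 0.000207). ESRP2 was lower with ESRP1 by a log2 ratio of -7.48 in MIA-PaCa2 but -2.996 in PANC-1, where it has its own expression, and this uneven pair gave an adjusted p of 0.691. Of 10676 genes with an NM_ transcript, 1 was 2-fold higher in both lines and 1 was 2-fold lower (0.00937% each), ESRP1 and ESRP2. At 1.5-fold only C11orf70 and CBWD3 joined them (2 in each direction, 0.0187%). Over all 11639 genes, small and other noncoding RNAs included, 14 (0.12%) were 2-fold higher and 6 (0.0516%) were 2-fold lower in both lines, and 15 went in opposite directions. At 1.5-fold the shares of all genes were 0.215% higher and 0.258% lower. The log2 ratios had an SD of 0.25 in MIA-PaCa2 against 0.16 in PANC-1 over the NM_ genes, and 49.9% of genes had the same sign in both lines (23.3% higher and 26.6% lower in both).

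**Figure D4:**
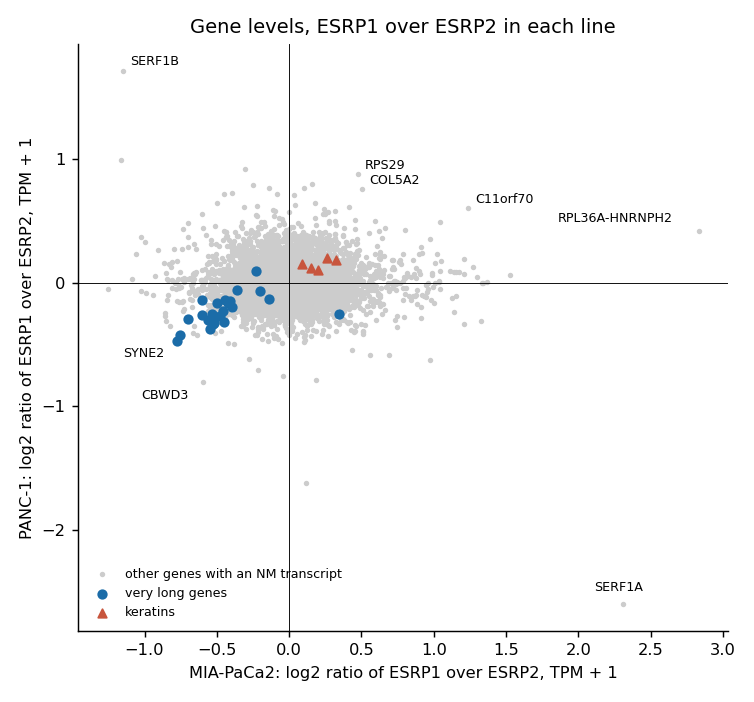
Log2 ratio of ESRP1 over ESRP2 on TPM plus 1, MIA-PaCa2 on the horizontal and PANC-1 on the vertical axis, 1 point for each gene with an NM_ transcript other than ESRP1 and ESRP2. Blue circles are 24 very long genes, of which 22 lie at the lower left, and red triangles are 5 keratins, all at the upper right; SERF1A and SERF1B are at opposite ends.

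C11orf70 stood at 7.18 TPM with ESRP1 and 2.47 TPM with ESRP2 in MIA-PaCa2, and at 7.31 and 4.47 TPM in PANC-1. LPCX was at 3.96 TPM in MIA-PaCa2, between the paralogs, and at 8.54 TPM in PANC-1, above both. CBWD3 was at 12.7 and 19.7 TPM in MIA-PaCa2 and 5.84 and 10.97 TPM in PANC-1, and it is 1 of several near-identical copies, so that its reads could be shared among them. COL5A2, a fibrillar collagen chain, was at 430 and 303 TPM in MIA-PaCa2 and at 5.68 and 2.96 TPM in PANC-1, beside 449 and 4.26 TPM with LPCX. S100A6, a calcium-binding protein, was at 2062 and 1181 TPM in MIA-PaCa2 and at 4339 and 3225 TPM in PANC-1. None of these passed the test, with limma adjusted p-values of 0.51 for COL5A2, 0.769 for S100A6, 0.807 for C11orf70 and 0.555 for CBWD3.

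The other genes that led by the smaller ratio of the lines on the side of ESRP1 were PCSK1N, RAB38, RPS29, SMIM11A, STMN3, TMSB4X, CACNG7 and the readthrough RPL36A-HNRNPH2. TMSB4X, thymosin beta 4, which holds actin monomers, was at 12151 and 8879 TPM in MIA-PaCa2 and at 3747 and 2769 TPM in PANC-1. STMN3, a microtubule regulator, was at 543 and 343 TPM and at 23.2 and 16.8 TPM. On the side of ESRP2 came SYNE2, CLEC2B, DST, HIST2H3D, GNG13, LOC101927572, VGF, PPAN-P2RY11, MACF1 and IL18. IL18, a cytokine of the inflammasome, was at 0.896 and 2.36 TPM in MIA-PaCa2 and at 57.2 and 73.3 TPM in PANC-1. The 8 on the side of ESRP1 had log2 ratios from 0.45 to 2.83 in MIA-PaCa2, while PANC-1 had 0.42 to 0.88. The 10 on the side of ESRP2 had -0.82 to -0.38 in MIA-PaCa2, while PANC-1 had -0.50 to -0.35. All of these had fitted log2 differences between -0.62 and 1.62 and limma adjusted p-values of 0.51 or more. Of the genes with known ESRP exons, CD44, CTNND1, DNM2, BAIAP2, MYOF, SLK and ENAH differed in level by a log2 difference of 0.10 or less. Larger log2 differences were found for FGFR2 (0.25) and OSBPL3 (-0.38), each with a limma adjusted p of 0.977. OSBPL3 was lower with ESRP1 in each line (log2 ratios -0.54 and -0.23, MIA-PaCa2 first).

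SYNE2, DST and MACF1 are giant linkers between the cytoskeleton and other structures, and a list of 25 very long genes held them together with spectrins and large proteins of other roles, such as HUWE1 and PRKDC. Of the 24 tested, 22 were lower with ESRP1 in both lines and 0 higher, beside 26.6% of all genes lower in both and 23.1% higher in both. The median log2 ratio of the list was -0.49 in MIA-PaCa2 but -0.26 in PANC-1, beside -0.0052 and -0.0050 for all genes (over both lines -0.37 for the list and -0.0029 for all genes). DST stood at 67.8 TPM with ESRP1 and 115 TPM with ESRP2 in MIA-PaCa2, and at 43.1 and 58.2 TPM in PANC-1. With LPCX it was at 79.0 and 44.2 TPM, so that ESRP1 was the nearer to the control in both lines. MACF1 stood at 26.8 and 39.6 TPM in MIA-PaCa2 and at 57.9 and 75.4 TPM in PANC-1, with LPCX at 26.1 and 56.0 TPM. The exceptions were UTRN, utrophin, higher with ESRP1 in MIA-PaCa2, and LRP1, a lipoprotein receptor, higher in PANC-1. No member passed the adjusted test. Of the 24, 16 were lower at an unadjusted p under 0.05, beside 196 of all 11639 genes. The list was drawn up with earlier results of these libraries known, so its counts are no independent evidence.

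The ratio also varied with transcript length. Over 9384 NM_ genes with a known length (87.9% of those tested) the ratio of ESRP1 over ESRP2 had a Spearman correlation with length of -0.28 in MIA-PaCa2 against -0.10 in PANC-1, across genes, which are not independent replicates. With genes ordered into 10 groups by length, the shortest group had a median log2 ratio of 0.07 in MIA-PaCa2 against 0.02 in PANC-1, and the longest group of -0.12 and -0.04. The part of length in the difference of the very long genes was not tested. The 12 genes named on the side of ESRP1 had a median transcript length of 1010 nt, and those on the side of ESRP2 of 2607 nt over the 10 with a length.

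**Figure D5:**
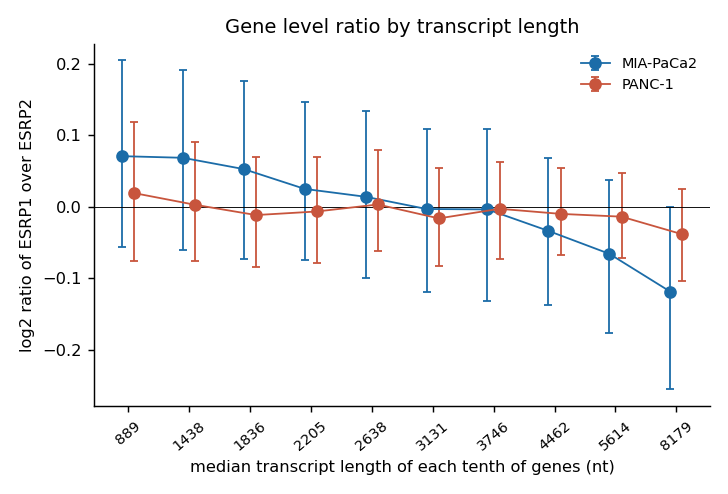
Median log2 ratio of ESRP1 over ESRP2 (points) with the quartiles (bars) for 10 groups of about 938 genes ordered by transcript length, whose median length is on the horizontal axis; blue is MIA-PaCa2 and red PANC-1. In MIA-PaCa2 the median goes from 0.07 in the shortest to -0.12 in the longest group, and in PANC-1 from 0.02 to -0.04.

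Keratins went the other way. For the gene groups that follow, the shares over all genes are again 23.1% higher and 26.6% lower with ESRP1 in both lines, and no member of these groups passed the adjusted test apart from ESRP1 itself. KRT8, KRT18, KRT19, KRT80 and KRT10, all 5 keratins tested of 12 in the list, were higher with ESRP1 in both lines, with a median log2 ratio of 0.20 in MIA-PaCa2, while that of PANC-1 was 0.15, and each had a limma adjusted p of 0.977. KRT8 was at 2223 and 1854 TPM with ESRP1 and ESRP2 in MIA-PaCa2 and at 823 and 716 TPM in PANC-1. KRT19 was at 313 and 250.1 TPM and at 417 and 366 TPM, while LPCX was at 234 TPM in MIA-PaCa2 and at 502 TPM in PANC-1, so the control was the lowest in one line and the highest in the other. Cytosolic ribosomal protein genes, which are short, were higher in both lines for 35 of 77 and lower for 15, with medians of 0.06 in MIA-PaCa2 but 0.04 in PANC-1. Members differed among themselves, since RPS29 was at 1530 and 1101 TPM in MIA-PaCa2 and 2391 and 1303 TPM in PANC-1, whereas RPS21 was at 1989 and 3143 TPM and at 1178 and 1501 TPM. Respiratory chain subunits were higher in both lines for 17 of 48 and lower for 5, with medians of 0.07 and 0.01, in the same order. Metallothioneins, which bind zinc, were lower with ESRP1 in both lines for 5 of 9 and higher for 1, with MT1X at 286 and 518 TPM in MIA-PaCa2 and 98.3 and 122 TPM in PANC-1. Their median was -0.47 in MIA-PaCa2 but -0.07 in PANC-1.

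The programs often tied to ESRPs and to cell state differed little in level. Of 26 epithelial junction and identity genes tested, 6 were higher with ESRP1 in both lines, ESRP1 among them, and 8 were lower, ESRP2 among them, with medians of -0.01 and -0.03 in MIA-PaCa2 and PANC-1. Of 22 mesenchymal genes, 7 were higher and 5 lower, with medians of -0.00042 and 0.05. Splicing regulators, 50 genes, were higher in 17 and lower in 12, with medians of -0.02 and 0.04. Genes of G1/S and replication (34) had medians of 0.02 and 0.01, those of G2/M and mitosis (25) of 0.03 and -0.01, and targets of YAP and TEAD (20) of 0.12 and -0.05. The medians of the mesenchymal genes, the splicing regulators, the G2/M genes and the YAP and TEAD targets thus had opposite signs in the 2 lines. PKP3, plakophilin 3, a desmosome protein, was at 77.4 and 56.7 TPM in MIA-PaCa2 and 57.8 and 50.8 TPM in PANC-1 with ESRP1 and ESRP2 (limma adjusted p = 0.977).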

How the data were processed

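Polyadenylated RNA of 6 cultures was sequenced after TruSeq mRNA library preparation, per the labels' protocols. The submitters' processing notes name Salmon and GRCh38 (hg38), with no version (not given in the sources used here). In unit, the deposited signal values are transcript levels in TPM, in 1 table by RefSeq transcript. The deposited table had 67792 lines, of which 8664 repeated another line and were dropped, leaving 59128 transcripts, whose columns then summed to 1000000. MIA-PaCa2 with ESRP2 has a column headed ESRP12. TPM was summed by gene, with 1 TPM added before log2 and a minimum of 5 TPM in 2 of the 4 libraries. Transcript shares and exon inclusion were tested as log2 odds with 0.5 TPM added. For exons, 38729 transcripts (65.5%) were paired with GENCODE 29 transcripts. Tests used limma 3.58.1 in R 4.3.3 with cell line as a block and Benjamini-Hochberg adjustment over all features, and the scripts were tested on simulated data. SEs and p-values use limma's moderated variance, which joins a feature's own spread with a trend over all features tested. They are therefore not the spread of 1 feature between the 2 lines. They measure nothing beyond the spread between these libraries. Genes named are those fixed by name and the 12 with the largest smaller ratio of the lines in each direction. The genes and lists were chosen with earlier results of these data known. Blood cell genes, looser pairing, NM_ genes by themselves and responsive exons were chosen after seeing the data. Results for 1 gene are not reported here, though counts over all exons and transcripts include it.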

Additional observations from a re-analysis of the deposited data

Results flagged for a closer look

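SERF1A and SERF1B, a pair of near-identical copies, went opposite ways in the 2 lines. SERF1A was at 35.3 and 6.34 TPM with ESRP1 and ESRP2 in MIA-PaCa2 and at 8.33 and 55.6 TPM in PANC-1, a gap of 4.91 between the log2 ratios of the lines. For SERF1B that gap was -2.87. A MAP2K7 exon was kept less with ESRP1 in MIA-PaCa2 (37.4% against 52.3%) and more in PANC-1 (70.1% against 58.5%), -26.4 points between the lines. A PIGF exon was at 41.1% against 28.8% and at 22.2% against 35.8%, 25.8 points between the lines. These differences between lines were not tested. Globin RNA summed to 1575 TPM in the MIA-PaCa2 ESRP1 library, and no globin gene entered a comparison.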

How the results depend on the processing

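The main fit is paired by cell line, which is its block, and the labels give no other replicate numbers. Genes called higher and lower with ESRP1 (1 and 0) came to 4 and 0 with 5 TPM added, 4 and 4 at 10 TPM in each library, 2 and 0 with LPCX included, and 0 without a filter or without the line term (no pairing), where ESRP1 had limma adjusted p-values of 0.112 and 0.153. Leaving out 1 library, with LPCX included, gave 1 to 12 higher and 0 to 14 lower, and ESRP2 was called without either ESRP2 library. Genes 2-fold higher, lower and opposite (14, 6 and 15) came to 25, 30 and 35 at 1.5-fold, 5, 1 and 8 with 5 TPM added, 1, 0 and 1 at 10 TPM, and 1, 1 and 2 for NM_ genes. Transcript shares (103, 99 and 185) came to 5, 7 and 10 at 20 points, 26, 30 and 39 at 20 TPM, and 208, 197 and 405 at 1 TPM. Exons (8, 21 and 14) came to 0, 1 and 0 at 20 points, 3, 13 and 2 at 20 TPM, 15, 26 and 35 with looser pairing, and 1, 8 and 2 for responsive exons. With NM_ transcripts alone the level of SLK was -0.011 and that of BAIAP2 -0.00083. With 1 library left out, the signs of some log2 differences in level turned. Of these genes FGFR2 was at 0.25 in the main fit, and the others were nearer 0. Without MIA-PaCa2 ESRP1, ENAH was -0.0090 and BAIAP2 -0.0020. Without MIA-PaCa2 ESRP2 (9 higher and 3 lower calls), ENAH was -0.11, CTNND1 -0.028, SLK -0.079 and MYOF -0.027. Without PANC-1 ESRP1, DNM2 was -0.0088 and FGFR2 -0.040, and without PANC-1 ESRP2 BAIAP2 was -0.0038. Exon log2 odds turned for SLK without MIA-PaCa2 ESRP1 (-0.44) or PANC-1 ESRP2 (-0.51), for OSBPL3 without MIA-PaCa2 ESRP2 (-0.15) or PANC-1 ESRP1 (-0.36), for USO1 without MIA-PaCa2 ESRP2 (0.016) and for ENAH without PANC-1 ESRP2 (-0.031). All fits with 1 library left out take the difference between lines partly from LPCX. They are thus not the ESRP1 against ESRP2 gap of the remaining libraries alone. The cause of these shifts was not tested.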
